A study of Mus musculus with 6 samples.

Results

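The genes studied here encode subunits of the 2 mTOR complexes and the core of the CUL4-DDB1 ubiquitin ligase, which marks the mTOR complex subunit raptor for ubiquitination. They were chosen by name and not by their values, although earlier results of these data were known. The genes were Mtor, Rptor, Rictor, Mlst8, Akt1s1, Mapkap1 and Prr5 for the kinase complexes, and Ddb1, Cul4a and Cul4b for the ligase. All 10 genes were measured, out of 18193 genes on the array, and 23 probe sets read them, out of 34945 probe sets with exactly 1 gene symbol. Each gene was read at its brightest probe set, the one of highest mean over the 6 arrays, and the other probe sets are given beside it.

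The samples were splenic germinal centre B cells, isolated by magnetic beads after immunisation with sheep erythrocytes, which evoke a strong germinal centre response. In 3 mice, called ImHABCL6/Uchl1, a transgene for the deubiquitinating enzyme Uchl1 was present on top of the ImHABCL6 allele. The other 3 mice, called ImHABCL6, carried that allele alone, so every animal expressed a tagged BCL6, the repressor that defines germinal centre B cells, from an immunoglobulin heavy-chain promoter. Total RNA of each mouse was hybridised to 1 Affymetrix mouse 430 2.0 array. Neither the promoter that drives the Uchl1 transgene nor the strain and age of the mice is given in the sources used.

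MTOR is a protein kinase that couples growth factors and nutrients to protein synthesis and cell growth. Together with raptor (Rptor) and MLST8 it forms mTORC1, which PRAS40 (Akt1s1) restrains, and together with rictor (Rictor), SIN1 (Mapkap1), MLST8 and Protor (Prr5) it forms mTORC2, which phosphorylates AKT. DDB1 is the adaptor that joins substrate receptors to the cullin scaffolds CUL4A and CUL4B, and UCHL1 has been reported in cultured cells to oppose the ubiquitination of raptor by this ligase. That reported action is on protein, whereas the arrays measured transcripts.

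The arrays had close medians, of 5.56 to 5.67 on the log2 scale. The Uchl1 probe set (1448260_at) read 5.96, 5.87 and 6.02 in the ImHABCL6/Uchl1 arrays, against 5.01, 5.0 and 5.02 in the ImHABCL6 arrays. The groups did not overlap, as for 9.44% of all genes. The difference was 0.94 (SE 0.12, limma adjusted p = 0.638, exact permutation p = 0.1, the smallest possible). The unadjusted limma p of Uchl1, 5.29e-05, was the smallest of all 18193 genes. Uchl1 was still not called at the adjusted threshold, and its mean level, 5.48, was low. The 9 measured of 11 germinal centre B-cell markers averaged 10.74 to 11.28 in ImHABCL6/Uchl1 arrays and 10.87 to 11.04 in ImHABCL6 arrays, above most genes. T-cell markers (5 of 7 measured) averaged 5.38 to 5.78 and 5.50 to 5.66, and NK-cell markers (2 of 3) 3.52 to 3.87 and 3.68 to 3.77. Myeloid markers (7 of 7) averaged 6.00 to 6.26 and 5.45 to 6.47, follicular helper T-cell markers (4 of 4) 6.49 to 6.97 and 6.50 to 7.06, plasma cell markers (5 of 5) 9.10 to 9.55 and 9.18 to 9.73, and platelet markers (5 of 5) 7.57 to 8.96 and 7.92 to 8.82. Red-cell precursor markers (12 of 16 measured) averaged 8.89 to 10.74 in ImHABCL6/Uchl1 arrays and 10.36 to 11.31 in ImHABCL6 arrays, so the preparations held erythroid RNA in amounts that varied between mice. Single markers differed within these lists. In ImHABCL6/Uchl1 replicate 3 the myeloid markers Lyz2 (10.55) and Csf1r (8.11) read highest of the 6 arrays. S100a8 (4.76) and S100a9 (4.47) read lowest there. Of the follicular helper T-cell markers Cxcr5 averaged 10.24 and Il21 4.53. No detection calls came with the values, so no marker could be called absent.

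None of the 10 genes passed the test between genotypes, and the values of the groups overlapped for every one of them. Cul4a stood lowest relative to the controls, at a log2 difference of -0.64, or 1.56-fold lower with the transgene, and Rictor and Mtor followed at -0.30 and -0.22. Rptor, which encodes the substrate of the ligase, had a difference of 0.0016. Of the 10 genes 7 had a lower mean in ImHABCL6/Uchl1 cells and 3 a higher one.

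With limma and Benjamini-Hochberg adjustment over 18193 genes, 0 of the 10 genes had an adjusted p under 0.05 (range 0.988 to 0.999). The same was true of all genes, of which 0 (0%) were called. At an unadjusted p under 0.05 there was 1 of the 10 genes, Cul4a, against 4.94% of all genes; in the direction of Cul4a, lower with the transgene, there were 3.85% of all genes, and 1.09% were higher. Complete separation of the arrays by genotype was found for 0 of the 10 and for 9.44% of all genes. The median log2 difference of the 10 was -0.13, against 0.0029 over all genes and -0.05 over the 9799 genes with a mean level of at least 6, a level that all 10 genes exceeded. The share lower was 70%, against 49.4% of all genes and 59.8% of those brighter genes. Of the 9799 brighter genes 726 had an unadjusted p under 0.05 in limma, 618 of them lower and 108 higher.

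**Figure D1:**
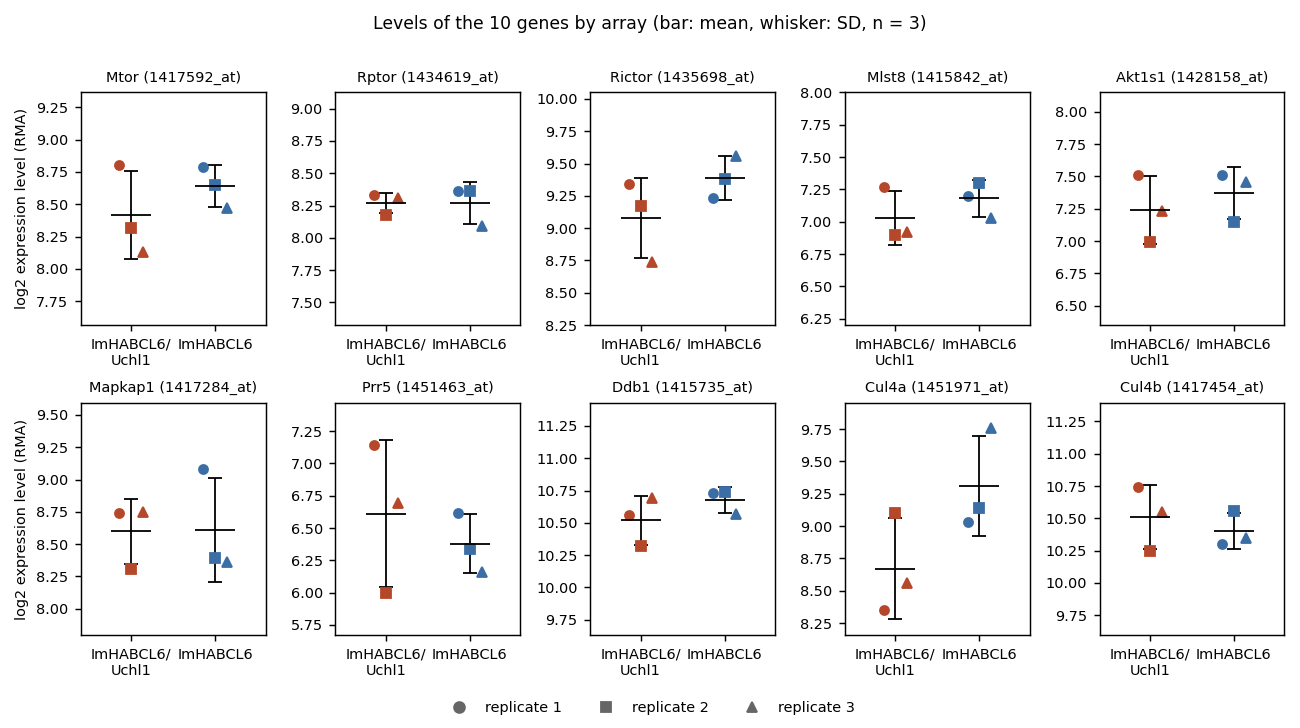
Log2 expression level (RMA, vertical axis) of each of the 10 genes at its brightest probe set, with ImHABCL6/Uchl1 arrays on the left and ImHABCL6 arrays on the right of each panel. Points are arrays, shaped by replicate number, horizontal bars are means and whiskers are SD (n = 3), and each vertical axis spans the same width. The groups overlap in every panel, and Cul4a shows the largest distance between means, at 8.67 against 9.31.

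The kinase itself read slightly lower at its brightest probe set. Mtor (1417592_at) had levels of 8.80, 8.32 and 8.13 in ImHABCL6/Uchl1 cells, against 8.79, 8.65 and 8.47 in ImHABCL6 cells. ImHABCL6/Uchl1 replicate 1 lay at the top of all 6 arrays, while the other ImHABCL6/Uchl1 arrays lay below every control. The log2 difference was -0.22 (SE 0.19, 95% interval -0.67 to 0.23, limma adjusted p = 0.998, exact permutation p = 0.4). Leaving out ImHABCL6/Uchl1 replicate 1 gave -0.41, and leaving out replicate 3 of that genotype gave -0.08. The next brightest Mtor probe set (1436267_a_at) had a difference of the other sign, 0.14 (SE 0.13), and the third, dim one (1446185_at) read 0.04.

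MLST8 is the subunit shared by both complexes. Mlst8 (1415842_at) had levels of 7.27, 6.90 and 6.92 with the transgene, against 7.20, 7.30 and 7.03 without it. Again ImHABCL6/Uchl1 replicate 1 lay among the controls and the other arrays of its group below them. The difference was -0.14 (SE 0.15, limma adjusted p = 0.998), and the other probe set (1415843_at) gave -0.13.

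Raptor, the scaffold through which mTORC1 recruits its substrates, was the most even of the 10 genes. Rptor (1434619_at) had levels of 8.33, 8.18 and 8.31 in ImHABCL6/Uchl1 cells and 8.36, 8.36 and 8.09 in ImHABCL6 cells, with means of 8.27 ± 0.08 and 8.27 ± 0.16 (SD, n = 3 each). The 6 arrays spanned 0.27 on the log2 scale, and the SD within groups, 0.12, was larger than that of 18.5% of genes. The 95% interval of the difference ran from -0.31 to 0.32, that is from 0.804-fold to 1.25-fold (limma adjusted p = 0.999). The remaining Rptor probe sets were dim and went opposite ways. One of them (1458472_at) read 4.35, 4.64 and 4.58 with the transgene, against 4.12, 4.12 and 4.35 without it, a difference of 0.32 (SE 0.14, unadjusted p = 0.054 and adjusted p = 0.999 in limma). The other (1430784_a_at) had a difference of -0.26 (SE 0.16).

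PRAS40 binds raptor and restrains mTORC1 until AKT phosphorylates it. Akt1s1 (1428158_at) had levels of 7.51, 6.99 and 7.23 in ImHABCL6/Uchl1 cells and 7.51, 7.15 and 7.46 in ImHABCL6 cells. The highest array of each group had the same level, and the difference was -0.13 (SE 0.18, limma adjusted p = 0.998). Its other probe sets were dim, with differences of -0.02 and 0.02.

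Among the subunits particular to mTORC2, rictor read lower and Protor higher, each by less than the spread between mice allowed to call. Rictor (1435698_at) had levels of 9.34, 9.17 and 8.74 with the transgene, against 9.23, 9.38 and 9.56 without it. ImHABCL6/Uchl1 replicate 3 lay lowest and ImHABCL6 replicate 3 highest, and ImHABCL6/Uchl1 replicate 1 lay among the controls. The difference was -0.30 (SE 0.19, 95% interval -0.73 to 0.12, limma adjusted p = 0.998, exact permutation p = 0.2), and it was -0.13 without ImHABCL6/Uchl1 replicate 3. Of the 5 Rictor probe sets 3 read lower and 2 higher, and the next brightest (1429810_at) gave 0.24 (SE 0.22). The mean of all 5 gave -0.02.

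SIN1, the subunit that positions AKT for the kinase, is encoded by Mapkap1. Mapkap1 (1417284_at) had levels of 8.74, 8.31 and 8.75 with the transgene and 9.08, 8.39 and 8.36 without it. ImHABCL6 replicate 1 stood above all other arrays, the difference was -0.01 (SE 0.23), and without that array it was 0.22. The second probe set (1427212_at) had the same array on top and a difference of -0.18 (SE 0.33).

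Prr5 encodes Protor, which binds rictor, and it had the largest SD within groups of the 10 genes. Prr5 (1451463_at) had levels of 7.14, 6.00 and 6.69 in ImHABCL6/Uchl1 cells, against 6.62, 6.34 and 6.16 in ImHABCL6 cells. ImHABCL6/Uchl1 arrays were both the highest and the lowest of the 6, a span of 1.14, where Cul4a spanned 1.41. The SD within groups, 0.44 against 0.39 for Cul4a, was larger than that of 92.5% of genes, and the difference of 0.23 (SE 0.28, limma adjusted p = 0.998) was -0.03 when ImHABCL6/Uchl1 replicate 1 was left out and 0.54 when replicate 2 of that genotype was.

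The balance of the complexes was compared through the distance between Rictor and Rptor on each array, a comparison chosen after the values were seen. A distance between different probe sets is no ratio of transcripts, so only its change between genotypes can be read. Rictor minus Rptor was 1.02, 0.99 and 0.43 on the log2 scale in ImHABCL6/Uchl1 cells, against 0.87, 1.02 and 1.47 in ImHABCL6 cells. The means were 0.81 ± 0.33 and 1.12 ± 0.31 (SD, n = 3 each), which differed by less than the arrays within a group (exact permutation p = 0.4, where the smallest possible is 0.1).

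**Figure D2:**
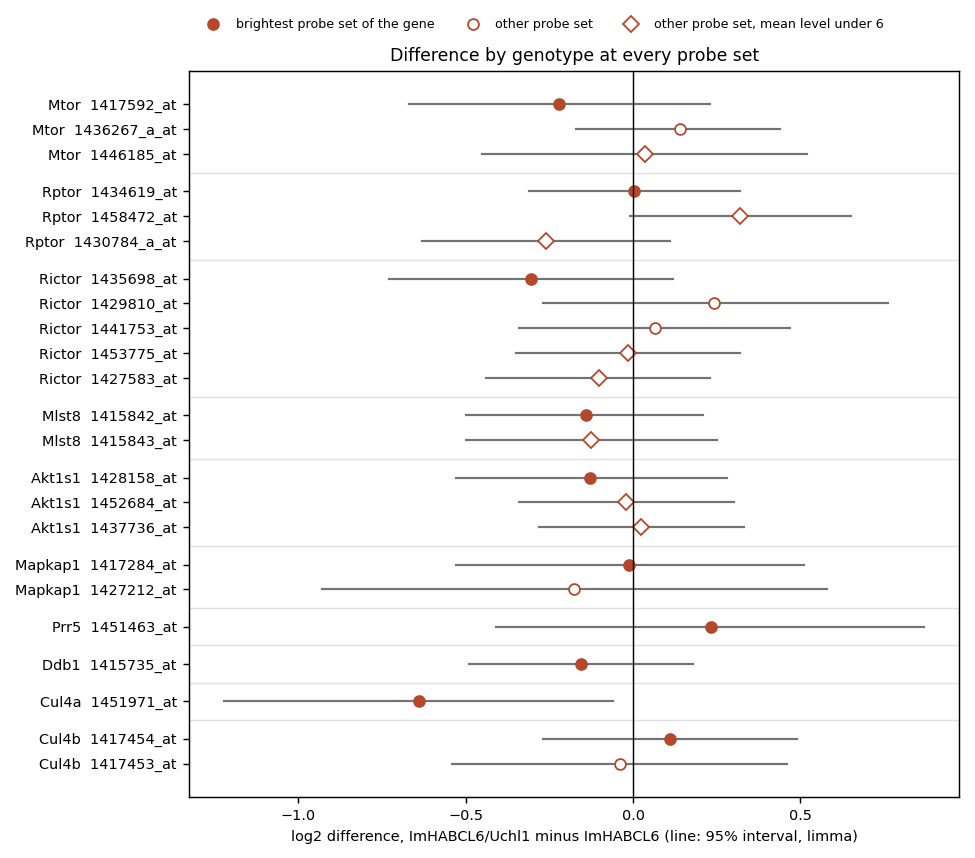
Log2 difference, ImHABCL6/Uchl1 minus ImHABCL6 (horizontal axis), at each of the 23 probe sets, with its 95% interval from limma as a line (3 arrays per genotype). Filled circles are the brightest probe set of a gene, open circles other probe sets, and open diamonds other probe sets with a mean level under 6. The interval of the Cul4a probe set alone leaves out 0, and the probe sets of Mtor, Rptor, Rictor, Akt1s1 and Cul4b lie on both sides of it.

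Of the 7 genes with more than 1 probe set, 2 had all their differences on one side of 0 (Mlst8 and Mapkap1) and 5 had differences of both signs. Over the 23 probe sets 14 differences were below 0 and 9 above, from -0.64 to 0.32. At an unadjusted p under 0.05 there was 1 of 23, the Cul4a probe set, against 4.91% of all 34945 probe sets. Probe sets of a gene share its transcripts and are not independent measurements, and 8 of the 23 had a mean level under 6, where RMA compresses differences.

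DDB1, the adaptor of the ligase, was bright and even. Ddb1 (1415735_at) had levels of 10.56, 10.32 and 10.69 with the transgene, against 10.73, 10.74 and 10.57 without it. ImHABCL6/Uchl1 replicate 2 lay lowest and the other 5 arrays lay between 10.56 and 10.74. The difference was -0.16 (SE 0.14, 95% interval -0.49 to 0.18, limma adjusted p = 0.998, exact permutation p = 0.2).

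The cullin scaffolds CUL4A and CUL4B are close relatives that can each pair with DDB1. Cul4a (1451971_at, its sole probe set) had levels of 8.35, 9.10 and 8.56 in ImHABCL6/Uchl1 cells, against 9.03, 9.14 and 9.76 in ImHABCL6 cells. Only ImHABCL6/Uchl1 replicate 2 reached into the control range, where it lay just above ImHABCL6 replicate 1. The means were 8.67 ± 0.39 and 9.31 ± 0.39 (SD, n = 3 each), and the difference was -0.64 (SE 0.25, 95% interval -1.22 to -0.06). Limma gave an unadjusted p of 0.0354, the 651st smallest of 18193, and an adjusted p of 0.988, and the exact permutation p was 0.2. The difference was -0.42 without ImHABCL6 replicate 3 and -0.86 without ImHABCL6/Uchl1 replicate 2.

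Cul4b (1417454_at) had levels of 10.74, 10.25 and 10.55 in ImHABCL6/Uchl1 cells, against 10.30, 10.56 and 10.35 in ImHABCL6 cells. The groups lay across each other, with a difference of 0.11 (SE 0.16, limma adjusted p = 0.998), and the second probe set (1417453_at) gave -0.04 (SE 0.22). The distance Cul4a minus Cul4b, also chosen after the values were seen, was -2.40, -1.15 and -1.99 with the transgene and -1.27, -1.42 and -0.60 without it. Its change of -0.75 was not distinguishable from the spread between mice (exact permutation p = 0.3).

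Cul4a followed the erythroid markers from array to array, in the same order in all 6. The mean log2 level of the 12 measured erythroid markers was 8.89, 10.74 and 10.17 in ImHABCL6/Uchl1 replicates 1 to 3, against 10.36, 10.89 and 11.31 in ImHABCL6 replicates 1 to 3. Cul4a was lowest in the array with the lowest erythroid mean, ImHABCL6/Uchl1 replicate 1, and highest in the array with the highest, ImHABCL6 replicate 3. Spearman's rho over the 6 arrays was 1 (exact permutation p = 0.00278, the smallest possible, Benjamini-Hochberg adjusted p = 0.0278 over the 10 genes), and Pearson's r was 0.90 (exact permutation p = 0.0153, adjusted p = 0.0765). Without the 2 arrays farthest from the median erythroid mean, ImHABCL6/Uchl1 replicate 1 and ImHABCL6 replicate 3, Pearson's r was 0.84. A value within each genotype would rest on 3 arrays and is not given, and the permutation took no account of genotype. The share of all genes that follow the erythroid mean as closely is not given either. Among the genes named below from related lists, Pearson's r with the erythroid mean ran from -0.84 (Trrap) to 0.96 (Rragd). An r as high as that of Cul4a was therefore not particular to it. In a mixed preparation, fewer cells of a type and less RNA per cell cannot be told apart.

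With the erythroid mean as a covariate in the fit of all genes, the Cul4a difference was -0.23 (SE 0.20, limma adjusted p = 0.571). The erythroid mean itself differed by -0.92 between genotypes, with arrays that overlapped (exact permutation p = 0.2, where the smallest possible is 0.1). Of its 12 markers 11 had a lower mean with the transgene, so the covariate and the genotype share part of their variation. The remaining marker, Hba-a1, was dim, with a mean level of 4.19 and a range of 3.89 to 4.41. The part of erythroid RNA in the Cul4a difference was not tested further.

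Prr5 ran opposite to the erythroid mean, with a Pearson r of -0.91 (exact permutation p = 0.0111, adjusted p = 0.0765) and a Spearman rho of -0.83 (exact permutation p = 0.0583, adjusted p = 0.292). Without the same 2 arrays r was -0.79, and with the covariate the Prr5 difference was -0.28 in place of 0.23. For the other 8 genes Pearson's r lay between -0.71 (Cul4b) and 0.25 (Rictor), and the adjusted exact permutation p was at least 0.333. Without the same 2 arrays r was 0.81 for Rictor and -0.77 for Mapkap1, and between -0.59 (Akt1s1) and 0.39 (Mlst8) for the rest. An r of that size without these arrays was therefore not particular to Cul4a or Prr5.

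**Figure D3:**
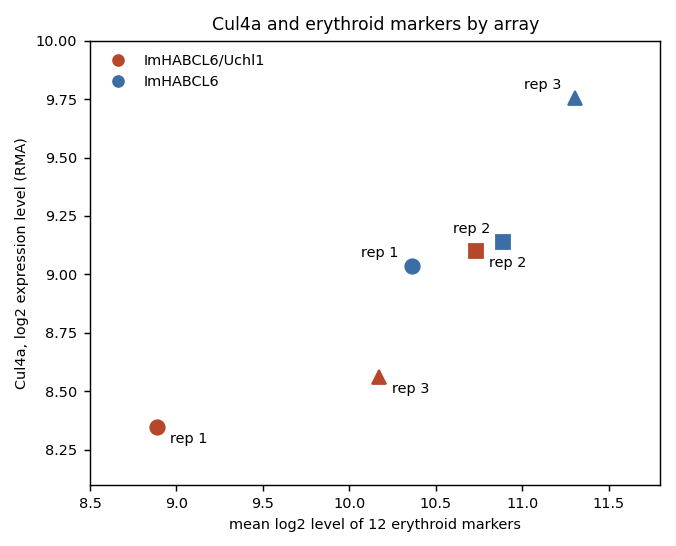
Log2 level of Cul4a (vertical axis) against the mean log2 level of 12 erythroid markers (horizontal axis), with 1 point per array, shaped by replicate number as labelled and coloured by genotype. The 6 arrays rank in the same order on both axes, from ImHABCL6/Uchl1 replicate 1 (8.35) to ImHABCL6 replicate 3 (9.76), and the genotypes interleave.

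The sequences before the starts of the cullin genes are shown because Cul4a had the largest difference of the 10 genes and Cul4b is its closest relative. The difference of neither gene passed the test. Each run is the 250 bases before the annotated start in RefSeq on GRCm38.p6, 5′ to 3′ on the strand of the gene, at chr8:13105373-13105622 on the plus strand for Cul4a and chrX:38576197-38576446 on the minus strand for Cul4b, with CpG dinucleotides in capitals.
Cul4a: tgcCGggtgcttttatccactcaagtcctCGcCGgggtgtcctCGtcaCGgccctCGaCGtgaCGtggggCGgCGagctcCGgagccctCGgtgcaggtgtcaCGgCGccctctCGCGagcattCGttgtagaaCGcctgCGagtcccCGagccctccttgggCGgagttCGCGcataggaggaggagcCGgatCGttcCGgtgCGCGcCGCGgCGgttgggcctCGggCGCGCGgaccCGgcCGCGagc
Cul4b: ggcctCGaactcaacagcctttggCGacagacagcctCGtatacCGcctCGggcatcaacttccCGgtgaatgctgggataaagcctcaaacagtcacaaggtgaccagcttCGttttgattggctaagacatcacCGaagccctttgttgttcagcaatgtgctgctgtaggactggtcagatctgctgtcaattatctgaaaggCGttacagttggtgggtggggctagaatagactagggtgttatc
The Cul4a window held 38 CpG dinucleotides and was 71.6% G and C, and the Cul4b window held 9 and was 50.8% G and C, where the medians over 32851 such windows were 6 and 52.4%. A search of both strands, with motifs chosen after the values were seen, looked for the GATA motif AGATAA, the KLF motif CCNCNCCC, the E-box CACGTG, a BCL6 core TTCCNNGAA and the ETS motif CCGGAAG. The Cul4a window matched none of these letters. The Cul4b window held 1 match to the GATA motif, which 9.99% of all windows hold, and 1 to the KLF motif, which 45.9% hold, and these matches did not overlap. Such matches describe letters and not bound sites.

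The arrays were not equally placed across the 10 genes. ImHABCL6/Uchl1 replicate 2 was the lowest of the 6 arrays for 6 genes, ImHABCL6/Uchl1 replicate 3 for 2, and ImHABCL6/Uchl1 replicate 1 and ImHABCL6 replicate 3 for 1 each. The highest array was ImHABCL6/Uchl1 replicate 1 or ImHABCL6 replicate 1 for 3 genes each, and ImHABCL6 replicate 2 or 3 for 2 each. The shares of all genes lowest or highest on each array are not given. These counts can therefore not be read as particular to the 10 genes. ImHABCL6/Uchl1 replicate 2 had the highest median over all probe sets, 5.67. ImHABCL6/Uchl1 replicate 2 also had the lowest mean of germinal centre markers, 10.74, and ImHABCL6/Uchl1 replicate 1 the highest, 11.28.

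The genes whose levels ran most like those of Rptor over the 6 arrays, among 9798 other genes with a mean level of at least 6, were Pik3r2, a regulatory subunit of PI3-kinase (Pearson r 0.994), Spsb2 (0.977) and Ip6k2, an inositol phosphate kinase (0.977). For Ddb1 they were Ctdspl2 (0.994), the proteasome lid subunit Psmd13 (0.991) and Lsm7, an RNA-binding protein of the splicing machinery (0.991). These genes were picked as the highest of 9798 values, each over 6 arrays, of which 0.939% were over 0.9 with Rptor and 4.01% with Ddb1.

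None of the genes that control mTORC1 passed the test. This list holds the TSC complex, the Rag GTPases with their Ragulator anchor on the lysosome, the GATOR complexes, and the sensors that feed them. Of 46 listed genes 44 were measured, 29 with a lower mean in ImHABCL6/Uchl1 cells and 15 with a higher one, and the median difference was -0.10. The share lower was 65.9%, against 49.4% of all genes and 59.8% of those with a mean level of at least 6, whose median difference was -0.05. At an unadjusted p under 0.05 there were 4, all lower, against 3.85% of all genes lower and 1.09% higher, and 0 had an adjusted p under 0.05 in limma. Of the 9799 genes with a mean level of at least 6, 618 were lower and 108 higher at that unadjusted p.

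Sesn1, a leucine sensor and stress-induced brake on mTORC1, had levels of 9.68, 10.17 and 9.67 in ImHABCL6/Uchl1 cells, against 10.43, 10.39 and 10.69 in ImHABCL6 cells. The groups did not overlap, and the difference was -0.66 (SE 0.18, limma adjusted p = 0.854). Rragd, a Rag GTPase, differed by -0.86 (SE 0.30), the Ragulator subunit Lamtor3 by -0.31 (SE 0.13) and Stk11, the LKB1 kinase that activates AMPK, by -0.37 (SE 0.16), with limma adjusted p-values of 0.983 to 0.998. With the erythroid covariate Rragd was at -0.30 and Sesn1 at -0.45, whereas Lamtor3 was at -0.35 and Stk11 at -0.46. Without ImHABCL6/Uchl1 replicate 2 the median of the list was 0.04 and the share lower 45.5%, so the direction rested on that array.

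The substrates and effectors of mTOR were divided. Of 32 listed genes 29 were measured, 16 lower and 13 higher in ImHABCL6/Uchl1 cells, with a median difference of -0.08, and 0 passed the test. The median was 0.015 without ImHABCL6/Uchl1 replicate 2 and also without ImHABCL6 replicate 1, so its sign rested on single arrays. At an unadjusted p under 0.05 there were 3 of the 29, all lower, against 4.94% of all genes, among which lower calls also prevailed (3.85% against 1.09% higher). Among the 9799 genes with a mean level of at least 6 there were 618 lower and 108 higher. Lpin1, a phosphatidate phosphatase that mTORC1 keeps out of the nucleus, had levels of 7.03, 7.14 and 6.98 with the transgene, against 7.73, 7.69 and 7.77 without it. Its groups lay far apart for their spread, and the difference was -0.68 (SE 0.12, limma adjusted p = 0.638). With the erythroid covariate it was -0.64. Eef2k, the kinase that slows translation elongation and is inhibited downstream of mTORC1, differed by -1.08 (SE 0.36, limma adjusted p = 0.983) and was at -0.38 with that covariate and at -0.71 without ImHABCL6/Uchl1 replicate 1. Sgk3, a kinase related to AKT, differed by -0.38 (SE 0.16), and Srebf1, a regulator of lipid synthesis, by 0.27 (SE 0.14).

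The partners of the CUL4 ligases are their substrate receptors, the NEDD8 pathway that activates cullins and the COP9 signalosome that removes NEDD8. Of 52 listed genes 51 were measured, 33 lower (64.7%) and 18 higher with the transgene, against 49.4% lower among all genes and 59.8% among the brighter ones, and the median difference was -0.07. At an unadjusted p under 0.05 there were 5 of the 51, against 4.94% of all genes. Of the 5 genes 3 were lower and 2 higher, against 3.85% and 1.09% of all genes, and 0 had an adjusted p under 0.05 in limma. The 9799 brighter genes had 618 lower and 108 higher at that unadjusted p. Dtl, the receptor that directs the ligase to replication-coupled substrates, had levels of 9.66, 9.34 and 9.86 in ImHABCL6/Uchl1 cells and 10.12, 10.03 and 10.25 in ImHABCL6 cells. The groups did not overlap, and the difference was -0.51 (SE 0.16, limma adjusted p = 0.983). Cop1, a ubiquitin ligase that works with DET1 and DDB1, differed by -0.42 (SE 0.15) and Nae1, a subunit of the NEDD8-activating enzyme, by -0.41 (SE 0.15), while Brwd1, a chromatin-bound WD-repeat protein, differed by 0.44 (SE 0.18). With the erythroid covariate these 4 genes were at -0.57, -0.41, -0.56 and 0.47. Without ImHABCL6/Uchl1 replicate 2, 37.3% of the list lay lower in place of 64.7%, and the median was 0.04.

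Relatives of the scaffold and of the kinase gave no call either. Of 11 measured genes of the other cullin ligases 8 were lower with the transgene (72.7%), against 49.4% of all genes and 59.8% of the brighter ones. Their median was -0.06, and Rbx1, which this list holds, was also counted among the CUL4 partners. The smallest p in limma belonged to Skp1, the adaptor of the CUL1 ligases (-0.16, SE 0.14), Cul1 (-0.26, SE 0.24), Cul2 (-0.18, SE 0.18) and Rnf7, a RING subunit (-0.12, SE 0.17). Of the 5 kinases related to Mtor 4 were lower, with a median of -0.17: Prkdc (-0.22, SE 0.19) and Atr (-0.17, SE 0.31) of the DNA damage response and Smg1 (-0.20, SE 0.27) of RNA surveillance stood beside Trrap, the member without kinase activity, at 0.07 (SE 0.15). No gene of these lists had an unadjusted p under 0.05, and the limma adjusted p was at least 0.998. With the erythroid covariate Cul1 was at -0.67 and Trrap at -0.11. Cul1 was at 0 and Cul2 at -0.01 without ImHABCL6/Uchl1 replicate 2, Prkdc was at -0.02 without ImHABCL6/Uchl1 replicate 3, Trrap was at -0.03 without ImHABCL6/Uchl1 replicate 1, and Rnf7, Smg1 and Atr changed sign when ImHABCL6/Uchl1 replicate 2 or 3 was left out, to 0.03, 0.07 and 0.15. The median of the kinases related to Mtor was 0.098 without ImHABCL6/Uchl1 replicate 2, 0.061 without ImHABCL6/Uchl1 replicate 3 and 0.054 without ImHABCL6 replicate 1, and that of the other cullin ligases was 0.0024 without ImHABCL6/Uchl1 replicate 2.

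**Figure D4:**
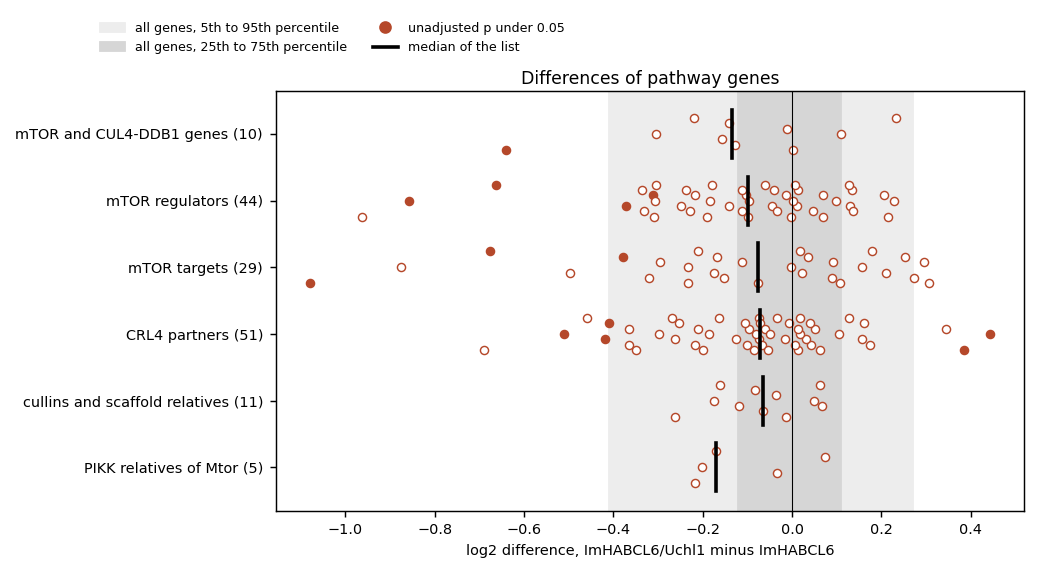
Log2 difference, ImHABCL6/Uchl1 minus ImHABCL6 (horizontal axis), of each gene of the mTOR and CUL4-DDB1 set and of 5 related lists, with the number measured in brackets. Points are genes, filled where the unadjusted p is under 0.05, vertical black bars are list medians, and grey bands are the central 50% and 90% of all genes. The medians lie between -0.17 and -0.06, and Eef2k, Fnip2, Foxo3 and Rragd are the points farthest to the left.

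Across 16 other settings, 0 of the 10 genes had an adjusted p under 0.05. Mtor, Rictor, Mlst8, Akt1s1, Ddb1 and Cul4a had a difference below 0 in every one of them, and Rptor, Mapkap1, Prr5 and Cul4b took both signs. The range was -0.86 to -0.23 for Cul4a and -0.33 to -0.076 for Mlst8. For the others it reached close to 0: -0.51 to -0.015 for Mtor and -0.55 to -0.023 for Rictor (each nearest 0 with the mean of all probe sets), -0.34 to -0.0015 for Akt1s1 (nearest 0 without ImHABCL6/Uchl1 replicate 2) and -0.25 to -0.041 for Ddb1 (nearest 0 with array weights). With array weights 3 of the 10 genes had an unadjusted p under 0.05, namely Cul4a (0.00468), Rictor (0.00616) and Mtor (0.0279), where 15.5% of all genes did, and their adjusted p in limma was 0.166 to 0.268. That fit gave ImHABCL6/Uchl1 replicate 3 a weight of 3.30 and ImHABCL6/Uchl1 replicates 1 and 2 weights of 0.51 and 0.30. With the erythroid covariate all 10 genes had a negative difference, as did 52.9% of all genes, and 1 had an unadjusted p under 0.05, Mtor (-0.51, SE 0.17, unadjusted p = 0.0174 and adjusted p = 0.30 in limma), where 15.4% of all genes did. After quantile normalization 0 of the 10 had an unadjusted p under 0.05, against 5.05% of all genes. There were also 0 without ImHABCL6/Uchl1 replicate 3 (4.33% of all genes) and 0 without ImHABCL6 replicate 3 (2.13%), and there were 2, Cul4a (lower) and Prr5 (higher), without ImHABCL6/Uchl1 replicate 2 (6.9%). Without ImHABCL6/Uchl1 replicate 1 all 10 genes had a negative difference, as did 51.9% of all genes.

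**Figure D5:**
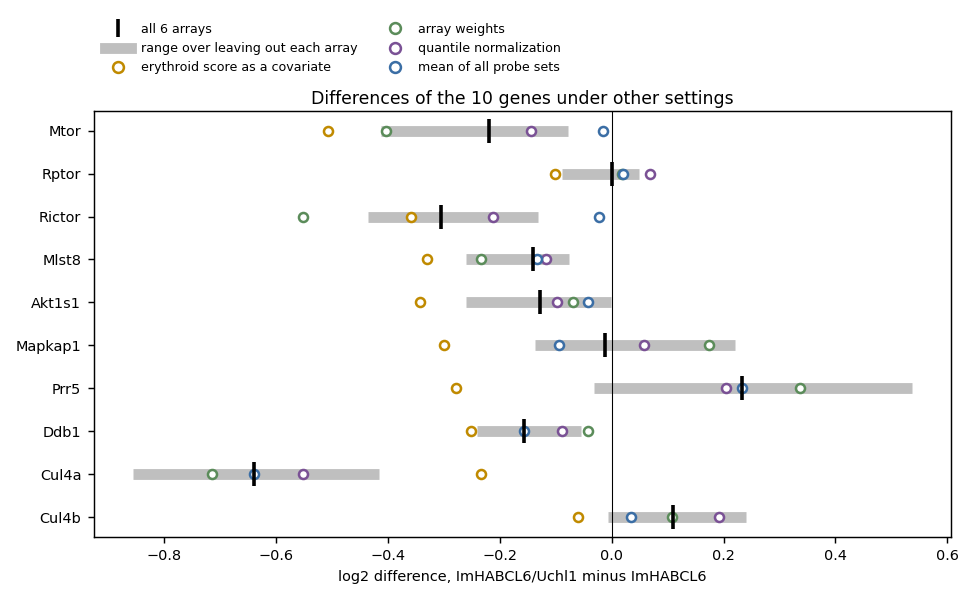
Log2 difference, ImHABCL6/Uchl1 minus ImHABCL6 (horizontal axis), of the 10 genes with all 6 arrays (black ticks), over leaving out each array in turn (grey bars from lowest to highest) and under 4 other settings (open circles). Cul4a, Mtor, Rictor, Mlst8, Akt1s1 and Ddb1 stay left of 0, and Rptor, Mapkap1, Prr5 and Cul4b lie on both sides.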

How the data were processed

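Per the labels' protocols, biotin-labelled RNA of 6 mice, made with a 3' IVT kit, went onto Affymetrix mouse 430 2.0 arrays. The authors deposited log2 RMA values, 1 for each probe set and array; the submitters' processing notes name RMA and Partek, without settings. The method subtracts background, equalises the arrays and combines each set's probes, and it compresses differences of dim probe sets. The values ran from 2.16 to 15.1. The design text gives separate mice, and their number, 3 per genotype, limits the precision.

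Of 45101 probe sets, 34945 had exactly 1 gene symbol in GEO's platform annotation, 932 had several, 9160 had none and 64 were controls. Symbols were checked through Entrez identifiers against RefSeq (GRCm38.p6), which changed 0 of them. The labels name no genome build.

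The genotype difference (ImHABCL6/Uchl1 minus ImHABCL6, two-sided) was fitted by lmFit and eBayes of limma 3.58.1 under R 4.3.3, with Benjamini-Hochberg adjustment over 18193 genes, a threshold of 0.05 and no filter. For single values the test was an exact permutation test (two-sided), which cannot go below p = 0.1 here. The fit was tested on simulated data. The simulated noise was independent for each gene and array, so it held no variation shared between genes, such as that of erythroid RNA. The genes, lists and alternatives were chosen with earlier results of these data known. The text names the 10 genes, Uchl1, the 4 genes of smallest p in each of 5 lists, and the 3 genes most like Rptor and Ddb1 in level. Fnip2, Foxo3, Rbx1, the single cell-type markers and the motifs fall outside that rule and were chosen after their values were seen. Promoter sequences, found for 10 of the 10 genes, are from RefSeq. Figures were drawn with matplotlib 3.10.9.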

Additional observations from a re-analysis of the deposited data

How the results depend on the processing

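No gene of the array had an adjusted p under 0.05 in any refit, and none was under 0.10 in the fit as reported; with array weights Uchl1 had 0.0689. The number of the 10 genes at an unadjusted p under 0.05 was 0 after quantile normalization and 3 with array weights, and 0 to 2 when single arrays were left out (0 without ImHABCL6/Uchl1 replicate 3 or ImHABCL6 replicate 3). The number lower was 6 to 10 without single arrays, and 10 without ImHABCL6/Uchl1 replicate 1. Their median was -0.29 with the erythroid covariate, and -0.22 to -0.03 without single arrays. Signs turned with the erythroid covariate for Rptor (-0.10), Prr5 (-0.28) and Cul4b (-0.061), and for Mapkap1 with centred arrays (0.014), quantile normalization (0.057) and array weights (0.17). Without single arrays Rptor ran from -0.088 to 0.049, Mapkap1 from -0.14 to 0.22, Prr5 from -0.032 to 0.54 and Cul4b from -0.0068 to 0.24. Uchl1 stayed between 0.90 and 0.99. With the erythroid covariate the medians were -0.27 for mTOR regulators, -0.25 for CUL4 partners, -0.22 for other cullin ligases and -0.45 for relatives of Mtor. For mTOR targets the median was 0.0046 when all probe sets of a gene were averaged, 0.02 without suffixed probe sets (names ending in _x_at, _s_at or _a_at), -0.0024 in genes of mean level at least 6, -0.0044 after quantile normalization and 0.022 with array weights. Without single arrays the medians ran from -0.20 to 0.043 for regulators, -0.12 to 0.015 for targets, -0.15 to 0.039 for CUL4 partners, and -0.13 to 0.0024 for other cullin ligases. The shares lower then ran from 37.3% to 80.4% for CUL4 partners, 45.5% to 81.8% for other cullin ligases and 40% to 100% for relatives of Mtor, which had 40% lower when all probe sets were averaged. The cause of these shifts was not tested. The replicate numbers do not pair the mice by any label. Deviations of same-numbered arrays correlated at 0.43, 0.19 and -0.26, and those of differently numbered arrays at -0.59 to 0.53. With a replicate block Cul4a had a limma adjusted p of 0.746 and 0 of the 10 genes passed.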
